A study of Homo sapiens with 9 samples.

Results

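The genes described here are 48 factors of ribosome biogenesis and of the nucleolus, the nuclear body in which ribosomes are made. The rule that lists their symbols uses no measured value, though the list was chosen with earlier results of these data known. All 48 were found among the 15354 rows of a gene table. The cells were HCT116, a line from a human colorectal carcinoma. They had been reverse transfected with small interfering RNA (siRNA), and RNA was taken 36 h later. The dose recorded for these samples was 25 nM, whereas the study's general methods give a higher one. Of the 9 libraries, 3 were labelled control (a commercial non-targeting siRNA), 3 siRNA A and 3 siRNA B, the last groups being directed against SNHG5, a cytoplasmic long non-coding RNA that hosts snoRNAs. All groups thus received an siRNA, and the labels do not say which of the study's siRNAs is A and which is B. The study's methods name 3 biological replicates, and HCT116 is 1 cell line, so the p-values below measure the spread between such cultures only.

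Ribosome biogenesis starts with RNA polymerase I, which transcribes the long precursor of the ribosomal RNAs (rRNAs) in the nucleolus. Small nucleolar RNAs (snoRNAs) bound to proteins (snoRNPs) then guide the chemical modification and cleavage of that precursor, and separate sets of assembly factors, helicases and GTPases build the small and the large subunit around it. The pathway takes a large part of the transcription of a growing cell and is raised in many tumours, colorectal ones included. Ordered by role, the 48 genes were 3 proteins of box C/D snoRNPs, 4 of box H/ACA snoRNPs, 3 nucleolar chaperones or scaffolds, 18 factors of the small subunit, 13 of the large subunit and 7 of RNA polymerase I transcription.

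The depth was 15566530 to 23277549 reads per library, and the lowest count of any of the 48 genes in any library was 94 reads, for BOP1. SNHG5 went against the labels. Its levels of 35.6, 26.3 and 28.6 CPM (the share of a library's reads, on a common scale) in the control libraries were exceeded in the libraries labelled siRNA A (63.9, 50.0 and 61.6 CPM) and siRNA B (47.8, 47.7 and 45.2 CPM), hence in all 6 knock-downs by label. The study itself reported SNHG5 as reduced by both siRNAs at 36 h, measured by quantitative RT-PCR in HCT116 cells. Directions given below hold for libraries as labelled. Other measures also moved with the groups. The nuclear RNA MALAT1 took 0.301% to 0.592% of reads in control, 0.873% to 1.19% with siRNA A and 1.48% to 1.84% with siRNA B. All rows of the mitochondrial genome together took 15.0% to 18.7%, 18.9% to 21.4% and 16.4% to 22.5%, so here siRNA B overlapped control. Of 10 markers of colon epithelium, 8 had rows (not CDX1 and LGALS4) and summed to 2096 to 2183, 2805 to 3441 and 2393 to 2453 CPM. Of 7 fibroblast markers 4 had rows, summing to at most 19.7 CPM, of 5 leukocyte markers 2 had rows, summing to at most 1.67 CPM, and none of 3 endothelial markers had a row. The part of these shifts in the results below was not tested.

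Levels below are CPM scaled by the trimmed mean of M values (TMM), and log2 fold changes are on the log2(TMM-scaled CPM + 1) scale with n = 3 libraries in each group. They come from limma, with p-values adjusted by Benjamini-Hochberg over all 13893 genes tested, and a gene is called where the adjusted p is under 0.05. All 48 members passed the filter on low values. Without TMM, on what is called the totals scale below (reads over the library total), the median of all genes shifted, as a log2 fold change, from −0.02 to −0.34 for siRNA A against control, from 0.0043 to −0.18 for siRNA B against control and from −0.01 to −0.15 between the siRNAs. Calls under that scaling are given beside the main ones. Both comparisons with control use the same 3 control libraries.

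With siRNA A the ribosome biogenesis factors were mostly higher on the TMM scale, though not on the totals scale. Of the 48 genes, 28 (58.3%) were called higher and 4 (8.33%) lower, where 23.9% of all tested genes were called higher and 27.6% lower, 51.4% in either direction. The genes called higher belonged to every role and included FBL, NPM1, BYSL, DDX18, TAF1D and DDX21, and those called lower were NCL, BOP1, NIP7 and UBTF. The median log2 fold change of the 48 was 0.36 against −0.02 for all genes, and the difference of 0.38 between these medians was 0.34 on the totals scale and 0.38 with DESeq2 size factors. Counted on the totals scale, 7 members were called higher and 11 lower (9.05% and 47% of all genes), so the higher members made up 87.5% of the calls on the TMM scale and 38.9% on the totals scale. A change of scale moves all genes of a library alike, so it leaves the distance between the medians nearly as it was by construction.

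With siRNA B the same genes lay close to the rest of the table. Here 4 of 48 (8.33%) were called higher and 9 (18.8%) lower, where 15.6% of all genes were called higher and 18.3% lower, 34% in either direction. The 4 called higher were DKC1, UTP4, TAF1D and RRN3, and the 9 called lower were UTP3, NAT10, RRP9, PNO1, DDX10, BOP1, PES1, RRP1 and NIP7. The median of the 48 was −0.02 against 0.0043 for all genes. The totals scale gave 1 call higher and 16 lower, against 6.90% and 29.7% of all genes. The count of 4 rested on single libraries, and it was 2, 2, 1 and 2 without control library 2, control library 3, siRNA B library 1 and siRNA B library 3.

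Compared directly, the siRNAs differed in 32 of the 48 genes. With siRNA A 29 (60.4%) were higher than with siRNA B and 3 (6.25%) lower, where 17.6% and 19.5% of all genes were called, 37.1% in either direction. The 3 lower were NCL, BOP1 and UBTF. The totals scale left 20 higher and 4 lower, against 10.2% and 27% of all genes, and the median of the 48 was 0.36 on the TMM scale and 0.20 on the totals scale. The chart of fold changes by role plots both comparisons with control gene by gene.

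**Figure D1:**
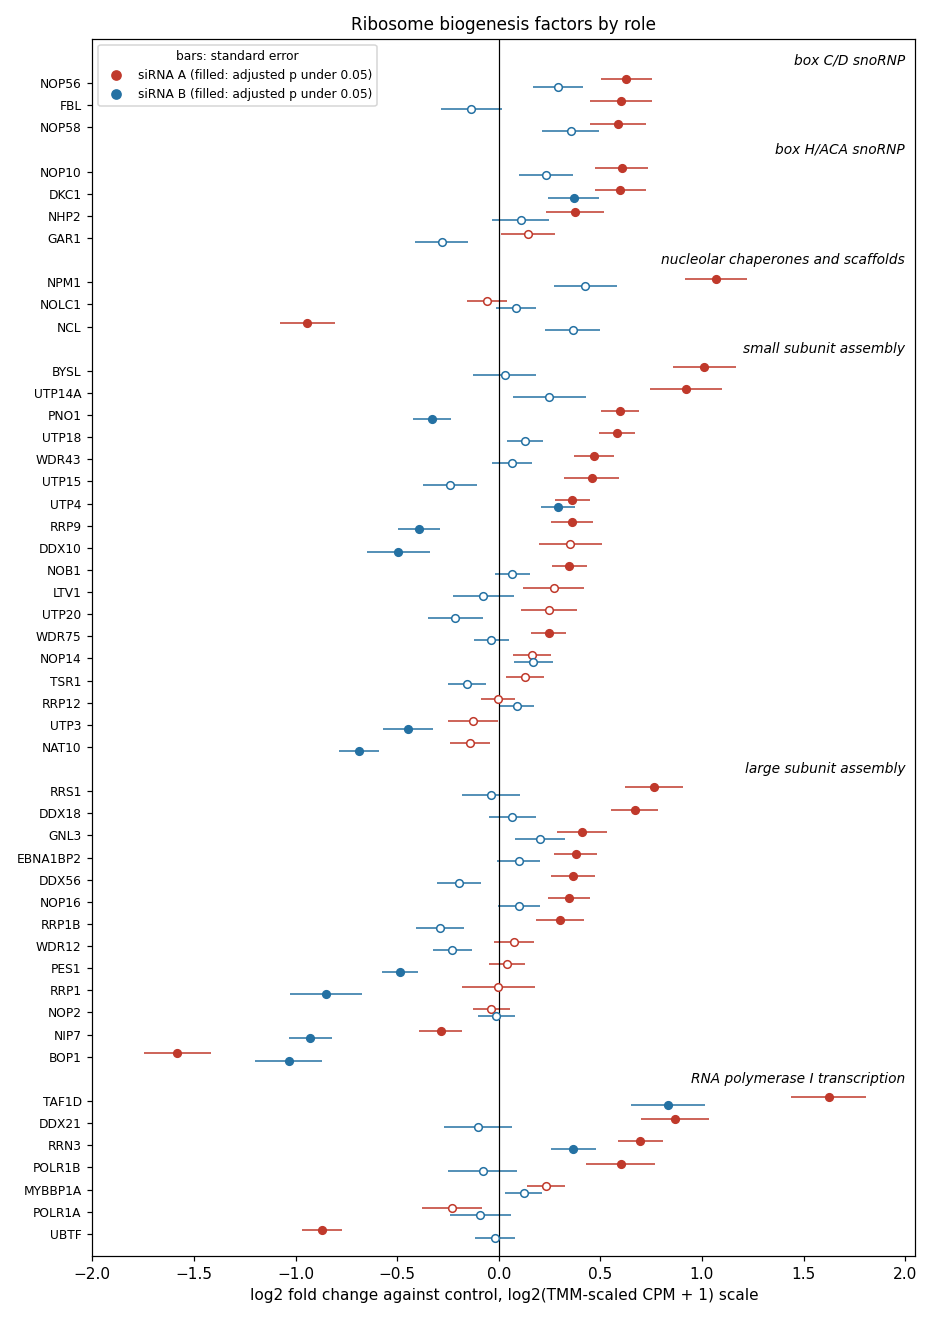
Log2 fold change of each of the 48 genes against control (x axis, log2(TMM-scaled CPM + 1) scale) for siRNA A (red) and siRNA B (blue), ordered by role, with bars for the standard error and filled points for an adjusted p under 0.05 in limma. Red points lie mostly right of 0 (28 called higher and 4 lower, or 7 and 11 on the totals scale), and blue points scatter around 0 (4 and 9, or 1 and 16).

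Overlap between groups depended on the scale too. On the TMM scale the 3 libraries of siRNA A lay wholly above the 3 controls in 30 of the 48 genes and wholly below in 4, where this was so for 27.6% and 31.9% of all genes, 59.5% on either side. For siRNA B the counts were 10 above and 12 below, against 22.5% and 25.1% of all genes (47.6% on either side). Between the siRNAs 34 genes lay wholly higher with A and 4 wholly lower, against 22.6% and 25% of all genes. Each call against control concerned groups that did not overlap on this scale, on which the heat map of single libraries is also drawn. On the totals scale, counted after the data were seen, the members wholly above and wholly below control were 7 and 13 with siRNA A (11% and 52.1% of all genes) and 0 and 25 with siRNA B (10.4% and 38% of all genes), and 24 were wholly higher and 6 wholly lower with A than with B (14.3% and 33.2% of all genes).

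**Figure D2:**
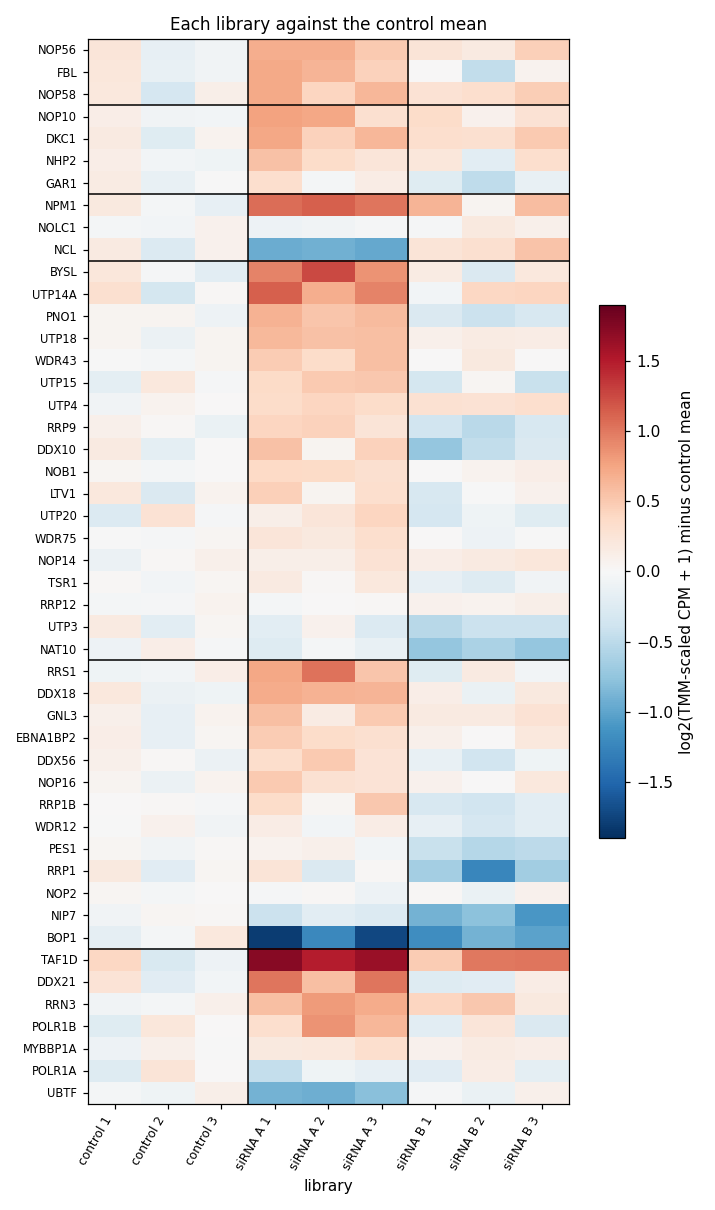
Each library (columns) against the mean of the control libraries (colour, difference in log2(TMM-scaled CPM + 1)), for the 48 genes in rows, with lines between the roles and groups. The siRNA A columns are red in most rows and deep blue for NCL, BOP1 and UBTF, and the siRNA B columns are pale except for rows such as NAT10, RRP1, NIP7, BOP1 and TAF1D.

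The promoter windows of RefSeq (GRCh38.p14, 250 bases before to 50 after the start) were read for the E-box CACGTG. This sequence is bound by MYC and other basic helix-loop-helix factors. Windows were found for 41 of the 48 genes, and none for NOP58, NOLC1, RRP12, BOP1, RRP1B, RRS1 and DDX18. CACGTG, which reads the same on both strands, was present in 20 of these 41 genes (48.8%), or 21 of their 49 windows (42.9%). It was present in 7.26% of all 35116 windows and in 9.28% of the windows of tested genes. Counted by gene, it was found in 12.5% of the 10226 tested genes with a window and in 22 of 103 other genes of the pathway (21.4%, or 18.6% of their windows). By role it was found in 11 of 17 small subunit genes with a window, 4 of 9 large subunit genes, 2 of 4 box H/ACA genes, 1 of 2 box C/D genes, 2 of 7 RNA polymerase I genes and 0 of 2 chaperone genes. Of 23 matches, 15 are given here as examples from each role that has one, to show where the match lies. The others are those of UTP14A, UTP20, LTV1, NOP14 and NOP2, both of EBNA1BP2 and a further one of UTP18. Each sequence given has 30 bases, read 5′ to 3′ on the strand of the gene, with the match in capitals.
FBL (chr19:39846356-39846385, minus strand): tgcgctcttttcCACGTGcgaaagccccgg
NOP10 (chr15:34343130-34343159, minus strand): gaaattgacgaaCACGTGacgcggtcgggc
NOP10, the second match (chr15:34343289-34343318, minus strand): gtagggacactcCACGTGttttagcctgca
GAR1 (chr4:109815781-109815810, plus strand): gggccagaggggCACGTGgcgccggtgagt
BYSL (chr6:41921515-41921544, plus strand): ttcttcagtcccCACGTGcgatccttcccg
UTP4 (chr16:69132621-69132650, plus strand): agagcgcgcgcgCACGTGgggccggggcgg
UTP18 (chr17:51260538-51260567, plus strand): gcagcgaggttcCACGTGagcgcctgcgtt
PNO1 (chr2:68157885-68157914, plus strand): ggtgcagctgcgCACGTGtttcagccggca
RRP9 (chr3:51941892-51941921, minus strand): gggttcagctgcCACGTGagttctgcggcc
NAT10 (chr11:34105602-34105631, plus strand): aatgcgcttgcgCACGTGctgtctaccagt
WDR43 (chr2:28894658-28894687, plus strand): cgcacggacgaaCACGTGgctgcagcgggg
GNL3 (chr3:52686026-52686055, plus strand): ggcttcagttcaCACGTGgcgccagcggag
PES1 (chr22:30591880-30591909, minus strand): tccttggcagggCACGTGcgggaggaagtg
DDX21 (chr10:68956604-68956633, plus strand): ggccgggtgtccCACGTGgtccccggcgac
MYBBP1A (chr17:4555340-4555369, minus strand): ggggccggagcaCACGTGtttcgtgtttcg

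Of all these matches, 9 lay before the annotated start, 13 after it and 1, that of RRP9, across it. In NAT10, UTP4 and the nearer NOP10 match, 9, 10 and 5 bases separated the match from the start, and in FBL, WDR43 and GNL3 it began 6, 3 and 6 bases inside the transcript. The counts of calls with and without the match were close, and their difference was not tested. On the TMM scale with siRNA A, 12 of the 20 with it were called higher and 0 lower (median 0.37). Of the 21 without it, 12 were called higher and 3 lower (median 0.35). With siRNA B the counts were 1 higher and 4 lower of 20, and 3 higher and 4 lower of 21. Of all genes, 23.9% were called higher and 27.6% lower with siRNA A, and 15.6% and 18.3% with siRNA B. Counts by match were not made on the totals scale, where 7 of all 48 members were called higher and 11 lower with siRNA A. These are descriptions of letters in a window, and binding was not measured.

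The core proteins of the snoRNPs were called higher with siRNA A on the TMM scale, all 3 of box C/D and 3 of 4 of box H/ACA, and none was called on the totals scale. Of all genes, 23.9% were called higher with siRNA A on the TMM scale, and 9.05% higher and 47% lower on the totals scale. Box C/D snoRNPs place methyl groups on ribose in rRNA, and their methyltransferase is fibrillarin (FBL, chromosome 19, 40325098 to 40337019, here and below on GRCh37), with NOP56 and NOP58 as the scaffold. FBL stood at 323, 252 and 267 TMM-scaled CPM in the control libraries, at 462, 436 and 379 with siRNA A and at 280, 201 and 292 with siRNA B. All 3 siRNA A libraries lay above all other libraries, and those of siRNA B overlapped control. The log2 fold change of FBL was 0.60 with siRNA A (± 0.15 SE, adjusted p = 0.00605 in limma) and −0.13 with siRNA B (± 0.15 SE, adjusted p = 0.530), and the siRNAs differed by 0.74 (± 0.15 SE, adjusted p = 0.00311).

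The scaffold proteins of the box C/D particle behaved alike with siRNA A. NOP56 (chromosome 20, 2633239 to 2639039) stood at 402, 311 and 328 CPM in control, 557, 557 and 489 with siRNA A and 408, 389 and 473 with siRNA B. NOP58 (chromosome 2, 203130459 to 203168384) stood at 294, 205 and 277 CPM, 423, 340 and 395, and 309, 320 and 353. The siRNA A libraries were above control in both genes, and for NOP58 the siRNA B libraries were also all above control. Their log2 fold changes with siRNA A were 0.63 (± 0.12 SE, adjusted p = 0.00139 in limma) and 0.59 (± 0.14 SE, adjusted p = 0.00443 in limma). With siRNA B the values of 0.29 and 0.35 did not pass (adjusted p = 0.0895 and 0.0705 in limma), and neither did the differences between the siRNAs (adjusted p = 0.0512 and 0.211). On the totals scale the siRNA A values of FBL, NOP56 and NOP58 were 0.23, 0.26 and 0.22, and none was called (adjusted p = 0.224, 0.0925 and 0.194). NOP56 holds the snoRNA genes SNORA51, SNORD110 and SNORD86 and NOP58 holds SNORD11, SNORD11B and SNORD70, some of which share bases with annotated exons of their hosts.

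Box H/ACA snoRNPs turn uridine in rRNA into pseudouridine, and dyskerin (DKC1) is their enzyme. DKC1 (chromosome X, 153991017 to 154005964) stood at 211, 160 and 198 CPM in control, 316, 254 and 291 with siRNA A and 234, 232 and 266 with siRNA B. Both siRNA groups lay above all controls. The log2 fold changes were 0.60 with siRNA A (± 0.13 SE, adjusted p = 0.00203 in limma) and 0.37 with siRNA B (± 0.13 SE, adjusted p = 0.0398 in limma). That siRNA B call ended without control library 2 or 3, siRNA A library 3, or siRNA B library 1 or 3 (0.24 to 0.40, adjusted p = 0.0546 to 0.182). On the totals scale the values were 0.23 and 0.16 (adjusted p = 0.146 and 0.371).

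The other proteins of that particle were less uniform. NOP10 (chromosome 15, 34631360 to 34635381), whose promoter window holds the E-box at a pair of places, stood at 84.7, 74.5 and 74.8 CPM in control, 133, 131 and 96.7 with siRNA A and 98.9, 82.3 and 94.6 with siRNA B. It rose with siRNA A by 0.60 (± 0.13 SE, adjusted p = 0.00258 in limma), and with siRNA B its value of 0.23 did not pass (adjusted p = 0.195). NHP2 (chromosome 5, 177576464 to 177580895) stood at 69.6, 60.9 and 60.02 CPM, 93.4, 81.1 and 74.2, and 73.7, 55.0 and 79.0. The siRNA A libraries of both genes lay above control, by a narrow margin for NHP2. NHP2 was called higher with siRNA A (0.38, ± 0.14 SE, adjusted p = 0.0419 in limma), and the call was lost without control library 2 or 3, siRNA A library 1 or 2, or siRNA B library 1 (0.29 to 0.39, adjusted p = 0.0519 to 0.151). On the totals scale NOP10 was at 0.24 and NHP2 at 0.012, neither called (adjusted p = 0.154 and 0.955). GAR1, which completes the particle, was called with neither siRNA (0.14 and −0.28, adjusted p = 0.378 and 0.117; −0.22 and −0.49 on the totals scale, the latter called with adjusted p = 0.0187) but was higher with A than with B by 0.43 (± 0.13 SE, adjusted p = 0.0241 in limma), a call lost without siRNA A library 1 or 3 or siRNA B library 2 (0.33 to 0.42) and on the totals scale (0.27, adjusted p = 0.160).

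Among the nucleolar chaperones and scaffolds the changes went in opposite directions. Nucleolin (NCL) and nucleophosmin (NPM1) are abundant nucleolar proteins that bind pre-rRNA and ribosomal proteins. In control cells NCL also had the highest level per kilobase of transcript of the 47 members for which a length was set (429 TMM-scaled CPM per kb), followed by NPM1 (262) and FBL (250), and WDR12 had the lowest (7.91). NCL (chromosome 2, 232318242 to 232348352) stood at 1884, 1395 and 1768 CPM in control, 867, 885 and 853 with siRNA A and 1973, 2063 and 2432 with siRNA B. The siRNA A libraries lay below all others and the siRNA B libraries above all others. NCL fell by 0.94 on the log2 scale with siRNA A (± 0.14 SE, adjusted p = 1.95e-04 in limma), and its value with siRNA B of 0.36 did not pass (± 0.14 SE, adjusted p = 0.0594). The siRNAs differed by −1.30 (± 0.14 SE, adjusted p = 5.57e-05 in limma). On the totals scale the fall with siRNA A was −1.31 (adjusted p = 3.6e-06).

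NPM1 (chromosome 5, 170814120 to 170838814) stood at 393, 336 and 308 CPM in control, 717, 759 and 695 with siRNA A and 540, 356 and 516 with siRNA B. Here siRNA A lay above all other libraries, and siRNA B library 2 fell within the control range. The rise with siRNA A was 1.07 (± 0.15 SE, adjusted p = 1.83e-04 in limma), or 0.70 on the totals scale (adjusted p = 0.00298). The siRNA B value was 0.43 (± 0.15 SE, adjusted p = 0.0511 in limma), which passed with the replicate number as a block (adjusted p = 0.0262). NPM1 has 49 pseudogenes by name, so reads that fit more than 1 copy are uncertain. NOLC1, a chaperone of snoRNPs, was called with neither siRNA (−0.06 and 0.09, adjusted p = 0.648 and 0.546), and on the totals scale it was lower with siRNA A (−0.43, adjusted p = 0.0028).

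**Figure D3:**
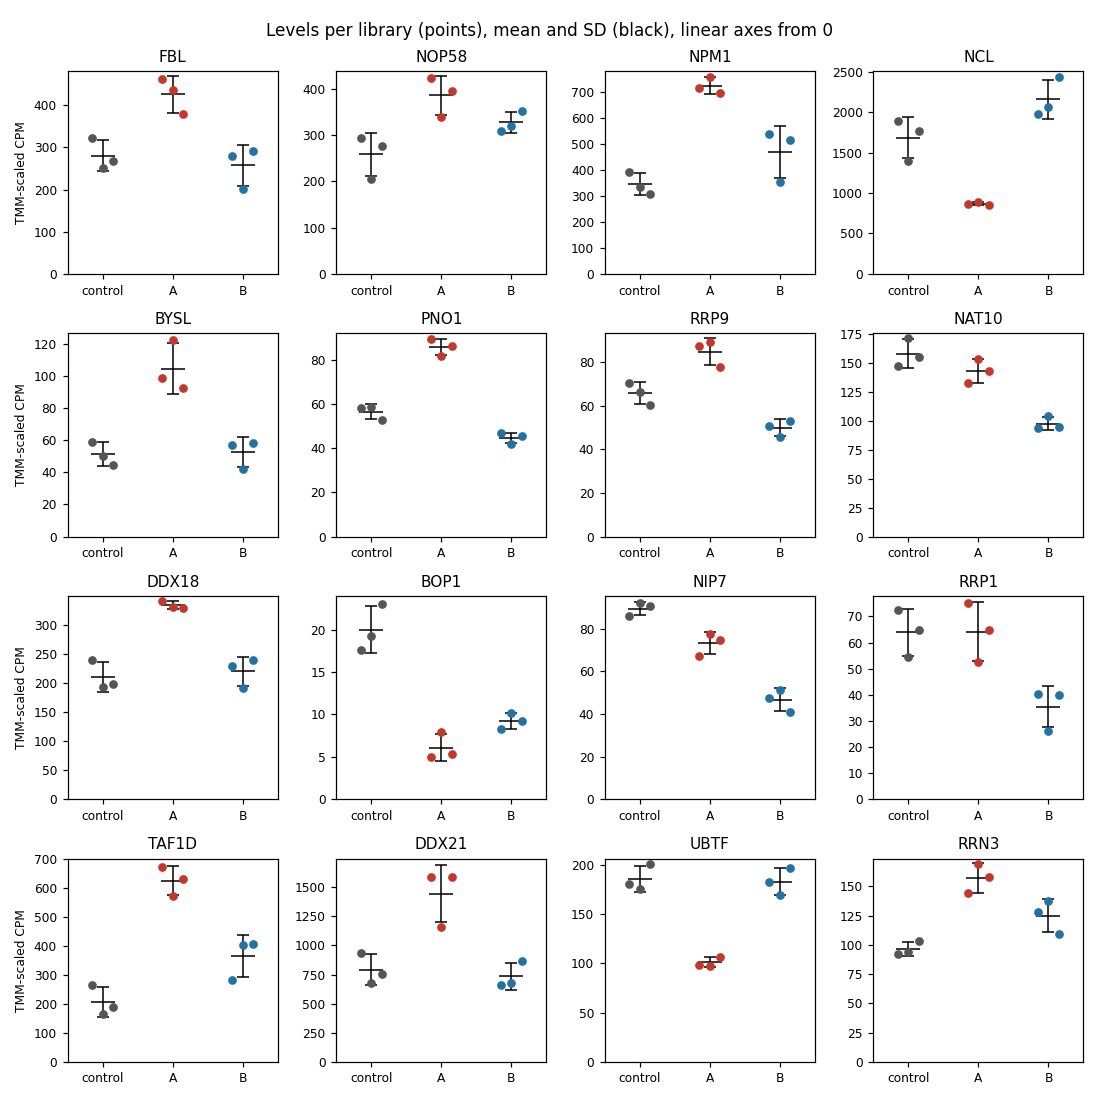
TMM-scaled CPM (y axes, linear from 0) of 16 of the 48 genes in each of the 9 libraries (points: grey control, red siRNA A, blue siRNA B), with the group mean and SD (n = 3) in black. FBL, NPM1, BYSL and DDX18 are highest in the 3 siRNA A libraries on this scale, NCL and UBTF are lower with siRNA A, PNO1 and RRP9 lie above control with A and below it with B, and BOP1 and NIP7 are lower with both.

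Of the 18 factors of the small subunit, 10 were called higher and 0 lower with siRNA A in limma (11 at an unadjusted p under 0.05 in either direction), or 2 and 3 on the totals scale. With siRNA B 1 was higher and 5 lower, or 0 and 8 on the totals scale. Between the siRNAs 13 were higher with A and 0 lower in limma (15 at an unadjusted p under 0.05), or 8 and 0 on the totals scale. Of all genes, 23.9% were called higher and 27.6% lower with siRNA A, and 15.6% and 18.3% with siRNA B. Between the siRNAs these shares were 17.6% and 19.5%. On the totals scale they were 9.05% and 47% with A, 6.9% and 29.7% with B, and 10.2% and 27% between the siRNAs. The role median was 0.35 with siRNA A and −0.06 with siRNA B. Early in this pathway the UtpA complex binds the nascent precursor, and its members UTP4, UTP15, WDR43 and WDR75 were all called higher with siRNA A (0.36, 0.46, 0.47 and 0.25), whereas on the totals scale none was called and UTP4 and WDR75 were at −0.0039 and −0.12. The calls of WDR75 and UTP15 also ended when single libraries were left out. WDR75 lost its call without control library 1, 2 or 3 or siRNA A library 1 or 3 (0.21 to 0.27), and UTP15 without control library 1 (0.37, adjusted p = 0.0562).

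The largest rises with siRNA A in this role were those of BYSL, UTP14A and PNO1. BYSL (bystin, chromosome 6, 41889237 to 41900784), a factor of late small subunit maturation, stood at 59.3, 50.5 and 44.5 CPM in control, 98.8, 123 and 92.8 with siRNA A and 57.2, 42.2 and 58.6 with siRNA B. Its level with siRNA A was 104.8 ± 15.8 CPM against 51.4 ± 7.43 in control (SD, n = 3), with siRNA B inside the control range or just below it. The log2 fold change was 1.01 with siRNA A (± 0.16 SE, adjusted p = 2.74e-04 in limma; 0.65 on the totals scale, adjusted p = 0.0042) and 0.029 with siRNA B (± 0.16 SE, adjusted p = 0.905). UTP14A (chromosome X, 129040097 to 129063737), a part of the small subunit processome, stood at 63.7, 40.3 and 52.2 CPM, 113, 83.4 and 99.0, and 49.3, 67.5 and 68.2. Again siRNA A was above all other libraries, and siRNA B overlapped control. UTP14A rose by 0.92 with siRNA A (± 0.18 SE, adjusted p = 0.00125 in limma), and on the totals scale by 0.56 (adjusted p = 0.013).

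PNO1 and RRP9 were called in opposite directions, which was so for 1.77% of all genes. PNO1 (chromosome 2, 68385020 to 68403370) is the partner of NOB1, the endonuclease that makes the last cut of the small subunit rRNA. It stood at 58.5, 58.7 and 52.8 CPM in control, 89.6, 82.2 and 86.5 with siRNA A and 46.8, 42.2 and 45.6 with siRNA B. The 3 groups did not overlap at all. PNO1 rose by 0.60 with siRNA A (± 0.09 SE, adjusted p = 3.20e-04 in limma) and had −0.33 as its log2 fold change with siRNA B (± 0.09 SE, adjusted p = 0.0181 in limma), and the siRNAs differed by 0.93 (± 0.09 SE, adjusted p = 4.73e-05). That siRNA B call just ended without control library 1 or 2 (−0.31 and −0.32, adjusted p = 0.0508 and 0.0524), and on the totals scale the siRNA A value of 0.23 was not called (adjusted p = 0.112). NOB1 itself rose with siRNA A by 0.35 (± 0.09 SE, adjusted p = 0.00519 in limma), or −0.02 on the totals scale, and stood at 0.07 with siRNA B.

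RRP9 (chromosome 3, 51967445 to 51975920), a protein of the snoRNP that guides the early cleavages of the precursor, stood at 70.6, 66.6 and 60.4 CPM in control, 87.6, 89.3 and 77.8 with siRNA A and 50.9, 45.7 and 53.3 with siRNA B. Its groups did not overlap either. The log2 fold changes were 0.36 with siRNA A (± 0.10 SE, adjusted p = 0.0128 in limma) and −0.39 with siRNA B (± 0.10 SE, adjusted p = 0.0133 in limma), with a difference of 0.75 (± 0.10 SE, adjusted p = 2.79e-04). The rise with siRNA A was not called without control library 3 (0.30, adjusted p = 0.0608) and vanished on the totals scale (−0.0028, adjusted p = 0.986).

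Other factors of the small subunit moved with siRNA B. NAT10 (chromosome 11, 34127164 to 34169217), the enzyme that acetylates cytidine in rRNA, stood at 147, 172 and 155 CPM in control, 132, 154 and 143 with siRNA A and 94.2, 104 and 94.3 with siRNA B. The siRNA B libraries lay far below the other 6. NAT10 had −0.69 as its log2 fold change with siRNA B (± 0.10 SE, adjusted p = 3.79e-04 in limma) and of −0.14 with siRNA A (± 0.10 SE, adjusted p = 0.257; −0.51 on the totals scale, adjusted p = 0.0016), and the siRNAs differed by 0.55 (± 0.10 SE, adjusted p = 0.00153). The helicase gene DDX10 (chromosome 11, 108535785 to 108811726) stood at 140, 110 and 126 CPM, 185, 130 and 170, and 74.3, 90.3 and 103. UTP3 (chromosome 4, 71554249 to 71556268), a part of the processome, stood at 96.0, 74.0 and 87.3 CPM, 73.8, 90.2 and 71.0, and 59.0, 64.0 and 63.9. In both genes siRNA B lay below all controls, while siRNA A overlapped them. DDX10 was lower with siRNA B by −0.49 (± 0.16 SE, adjusted p = 0.0286 in limma) and UTP3 by −0.45 (± 0.12 SE, adjusted p = 0.0149 in limma). Both calls were lost without control library 1 or 3 or siRNA B library 1 (−0.49 to −0.38 for DDX10 and −0.43 to −0.37 for UTP3). With siRNA A DDX10 stood at 0.35 (adjusted p = 0.0762), which passed with the replicate number as a block (adjusted p = 0.0393), and UTP3 at −0.13 (adjusted p = 0.402), or −0.49 on the totals scale (adjusted p = 0.00258).

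UTP4 was the member of this role called higher with both siRNAs. Its values were 142, 157 and 150 CPM in control, 190, 198 and 190 with siRNA A and 182, 181 and 187 with siRNA B, so both siRNA groups lay above control. The log2 fold changes were 0.36 (± 0.09 SE, adjusted p = 0.00415 in limma) and 0.29 (± 0.09 SE, adjusted p = 0.0210 in limma). That siRNA B call ended without control library 1 or 3 or siRNA B library 1 or 3 (0.25 to 0.29), and neither call was made on the totals scale (−0.0039 and 0.08). UTP18 rose with siRNA A by 0.58 (± 0.09 SE, adjusted p = 2.69e-04 in limma), or 0.21 on the totals scale (adjusted p = 0.0768), and stood at 0.13 with siRNA B. The other 5 small subunit genes, NOP14, TSR1, LTV1, UTP20 and RRP12, were called with neither siRNA, with log2 fold changes of −0.0034 to 0.27 for siRNA A and −0.21 to 0.17 for siRNA B. On the totals scale RRP12 was called lower with siRNA A (−0.37, adjusted p = 0.00638) and TSR1 and UTP20 with siRNA B (−0.37 and −0.42, adjusted p = 0.0201 and 0.0369), as was UTP15 (−0.45, adjusted p = 0.0232). Of the 5, TSR1 and UTP20 were higher with A than with B (0.29 and 0.46, adjusted p = 0.0321 and 0.0198 in limma), calls that ended on the totals scale (0.13 and 0.31) and without siRNA A library 1 or 3 or siRNA B library 1 or 2 for TSR1 (0.24 to 0.29) and siRNA A library 3 or siRNA B library 1 or 3 for UTP20 (0.38 to 0.45).

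The 13 factors of the large subunit held the largest falls. With siRNA A 7 were higher and 2 lower, or 1 and 4 on the totals scale, and with siRNA B 0 were higher and 4 lower in limma (6 at an unadjusted p under 0.05), or 0 and 7 on the totals scale. Between the siRNAs 8 were higher with A and 1 lower, or 7 and 1 on the totals scale. Of all genes, 23.9% were called higher and 27.6% lower with siRNA A, and 15.6% and 18.3% with siRNA B. Between the siRNAs these shares were 17.6% and 19.5%. On the totals scale they were 9.05% and 47% with A, 6.9% and 29.7% with B, and 10.2% and 27% between the siRNAs. PES1, BOP1 and WDR12 form the PeBoW complex, which is needed to process the rRNAs of the large subunit, and their values differed. BOP1 stood at 17.6, 19.3 and 23.0 CPM in control, 4.998, 7.94 and 5.30 with siRNA A and 8.23, 10.1 and 9.25 with siRNA B. Every library labelled with an siRNA lay below every control, and those of siRNA A below those of siRNA B. BOP1 fell with both, with −1.58 as its log2 fold change with siRNA A (± 0.17 SE, adjusted p = 2.46e-05 in limma) and −1.03 with siRNA B (± 0.17 SE, adjusted p = 7.33e-04 in limma). The difference of −0.55 between the siRNAs (adjusted p = 0.0233) was lost without siRNA A library 1 or 3 or siRNA B library 2 or 3 (−0.54 to −0.44).

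The values of its partners were closer to 0. PES1 (chromosome 22, 30972612 to 31003070) stood at 185, 172 and 182 CPM in control, 188, 192 and 174 with siRNA A and 133, 123 and 127 with siRNA B. The siRNA B libraries were below all others. PES1 had −0.49 as its log2 fold change with siRNA B (± 0.09 SE, adjusted p = 0.00156 in limma) and 0.04 with siRNA A (± 0.09 SE, adjusted p = 0.728), which was −0.33 on the totals scale (adjusted p = 0.0145). WDR12 was called against control with neither siRNA (0.08 and −0.23, adjusted p = 0.538 and 0.0919), and on the totals scale it was lower with siRNA B (−0.44, adjusted p = 0.0147).

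NIP7 and RRP1 gave the other large falls with siRNA B. NIP7 (chromosome 16, 69371899 to 69377009), a factor of precursor processing, stood at 85.9, 92.0 and 91.0 CPM in control, 67.5, 77.8 and 74.96 with siRNA A and 47.7, 51.5 and 41.2 with siRNA B. The 3 groups did not overlap. Its log2 fold change was −0.93 with siRNA B (± 0.11 SE, adjusted p = 8.38e-05 in limma) and −0.29 with siRNA A (± 0.11 SE, adjusted p = 0.0407 in limma). The siRNA A call was lost with DESeq2 size factors (−0.26, adjusted p = 0.0700), in DESeq2 on reads (−0.26, adjusted p = 0.0604), and without control library 1, 2 or 3, siRNA A library 1 or 3, or siRNA B library 1 (−0.31 to −0.23). NIP7 shares 873 exon bases with COG8 on the other strand.

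RRP1 (chromosome 21, 45209394 to 45225174) stood at 72.4, 54.5 and 64.9 CPM in control, 75.1, 52.5 and 64.7 with siRNA A and 40.2, 26.3 and 39.8 with siRNA B. Control and siRNA A overlapped fully, and siRNA B lay below both. RRP1 had −0.85 as its log2 fold change with siRNA B (± 0.18 SE, adjusted p = 0.00374 in limma) and −0.0018 with siRNA A (± 0.18 SE, adjusted p = 0.994; −0.36 on the totals scale). Its paralogue RRP1B, which lies near it on the same chromosome, was called higher with siRNA A at the threshold (0.30, ± 0.12 SE, adjusted p = 0.0499 in limma; −0.06 on the totals scale) and stood at −0.29 with siRNA B (adjusted p = 0.0786), which was called on the totals scale (−0.50, adjusted p = 0.0126). The siRNA A call of RRP1B was lost with a pseudocount of 0.1, without a filter, in a fit of the compared groups only and without control library 1, 2 or 3, siRNA A library 1 or 3, or siRNA B library 1 or 3 (0.20 to 0.31).

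Rises with siRNA A in this role were led by RRS1 and DDX18. RRS1, which helps to bring the smallest rRNA into the large subunit, stood at 45.2, 46.0 and 52.1 CPM in control, 80.0, 98.5 and 69.2 with siRNA A and 40.4, 54.0 and 46.0 with siRNA B. The helicase gene DDX18 (chromosome 2, 118572267 to 118589953) stood at 240, 194 and 198 CPM, 342, 331 and 329, and 230, 192 and 239. In both genes siRNA A lay above all other libraries and siRNA B overlapped control. RRS1 rose by 0.76 (± 0.14 SE, adjusted p = 9.56e-04 in limma) and DDX18 by 0.67 (± 0.12 SE, adjusted p = 5.75e-04 in limma), against −0.04 and 0.07 with siRNA B (adjusted p = 0.867 and 0.690). On the totals scale the rise of RRS1 was 0.40 (adjusted p = 0.016) and that of DDX18, 0.30, was not called (adjusted p = 0.0603). GNL3 (nucleostemin, a nucleolar GTPase), EBNA1BP2, the helicase gene DDX56 and NOP16 were also called higher with siRNA A (0.41, 0.38, 0.37 and 0.35, adjusted p = 0.0159, 0.0102, 0.0152 and 0.0148 in limma), and on the totals scale they stood at 0.04, 0.013, −0.0010 and −0.02. DDX56 was lower with siRNA B on that scale (−0.41, adjusted p = 0.0195). The calls ended without control library 2 or siRNA A library 1 or 3 for GNL3 (0.33 to 0.36), without control library 3 or siRNA A library 2 for DDX56 (0.31 and 0.30) and without control library 2 or siRNA A library 1 for NOP16 (0.28 and 0.27). NOP2, a methyltransferase of rRNA cytidines, was called in no comparison on the TMM scale (−0.04 and −0.01 against control), and on the totals scale it was lower with siRNA A (−0.40, adjusted p = 0.00528).

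Genes of RNA polymerase I transcription held the largest rise. With siRNA A 4 of 7 were higher and 1 lower (3 and 2 on the totals scale), and with siRNA B 2 were higher and 0 lower (1 and 0 on the totals scale). Of all genes, 23.9% were called higher and 27.6% lower with siRNA A, and 15.6% and 18.3% with siRNA B. On the totals scale these shares were 9.05% and 47% with A, and 6.9% and 29.7% with B. TAF1D (chromosome 11, 93463114 to 93517557) encodes a subunit of SL1, the selectivity factor at the rRNA gene promoter. It stood at 266, 164 and 189 CPM in control, 672, 572 and 633 with siRNA A and 283, 405 and 408 with siRNA B. All 3 groups were separate, although siRNA B library 1 lay close to the highest control. TAF1D rose by 1.62 with siRNA A (± 0.18 SE, adjusted p = 3.67e-05 in limma) and by 0.83 with siRNA B (± 0.18 SE, adjusted p = 0.00467 in limma), and both calls were made on the totals scale too (1.26 and 0.62). The gene holds 8 snoRNA genes, 7 of which share bases with its annotated exons, and its exons also overlap CEP295, C11orf54 and MED17 on the other strand, so its reads cannot all be assigned to the TAF1D mRNA.

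RRN3 encodes the factor that makes RNA polymerase I able to initiate. RRN3 (chromosome 16, 15153890 to 15188168) stood at 92.3, 93.8 and 103 CPM in control, 144, 169 and 158 with siRNA A and 128, 137 and 109 with siRNA B. Both siRNA groups lay above control, and they lay apart from each other. It rose by 0.70 with siRNA A (± 0.11 SE, adjusted p = 3.20e-04 in limma) and by 0.37 with siRNA B (± 0.11 SE, adjusted p = 0.0230 in limma). That siRNA B call ended without control library 1 or 2 or siRNA B library 1 or 2 (0.30 to 0.34) and on the totals scale (0.16, adjusted p = 0.306). RRN3 has 4 pseudogenes by name, so its reads may be shared with these copies.

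UBTF moved the other way with siRNA A. UBTF (chromosome 17, 42282401 to 42298994), which encodes the upstream binding factor that keeps the rRNA genes open, stood at 181, 175 and 201 CPM in control, 98.6, 97.5 and 107 with siRNA A and 182, 170 and 197 with siRNA B. The siRNA A libraries were far below the other 6, which overlapped. UBTF fell by 0.87 on the log2 scale with siRNA A (± 0.10 SE, adjusted p = 3.78e-05 in limma), or −1.24 on the totals scale, and had a value of −0.02 with siRNA B (± 0.10 SE, adjusted p = 0.895). DDX21 (chromosome 10, 70715891 to 70744824), a helicase that binds rRNA genes and snoRNAs, stood at 937, 676 and 758 CPM, 1589, 1159 and 1586, and 663, 674 and 868. Its siRNA A libraries lay above all others, and it rose by 0.87 (± 0.17 SE, adjusted p = 0.00124 in limma; 0.50 on the totals scale, adjusted p = 0.024), against −0.10 with siRNA B (adjusted p = 0.672).

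The catalytic subunits of the polymerase differed from each other. POLR1A (chromosome 2, 86247339 to 86333278), which encodes the largest subunit, stood at 120, 169 and 143 CPM in control, 104, 134 and 128 with siRNA A and 122, 157 and 125 with siRNA B, so all groups overlapped. It was called with neither siRNA (−0.23 and −0.09, ± 0.15 SE, adjusted p = 0.217 in limma and 0.675), though on the totals scale it was lower with siRNA A (−0.60, adjusted p = 0.0042). POLR1B, which encodes the next largest subunit, rose with siRNA A by 0.60 (± 0.17 SE, adjusted p = 0.0114 in limma), or 0.23 on the totals scale (adjusted p = 0.241), and stood at −0.08 with siRNA B. MYBBP1A, a nucleolar regulator of this transcription, was at 0.23 with siRNA A (adjusted p = 0.0514), which passed with the replicate number as a block (adjusted p = 0.0431), and at 0.12 with siRNA B.

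Across both siRNAs, 4 members were called higher with each (DKC1, UTP4, TAF1D and RRN3) and 2 lower with each (BOP1 and NIP7), where 10.2% and 11.7% of all genes were. A further 2 (PNO1 and RRP9) were called in opposite directions. Of the rest, 24 were called with siRNA A alone and 5 with siRNA B alone, and 11 with neither. Of these 11, GAR1, TSR1, UTP20 and WDR12 were called between the siRNAs (WDR12 by 0.30, adjusted p = 0.0294, a call lost without siRNA A library 1 or 3 or siRNA B library 2 or 3, at 0.26 to 0.31), and NOLC1, NOP14, LTV1, RRP12, NOP2, POLR1A and MYBBP1A in no comparison. The totals scale had 1 higher and 5 lower with both, and the matching shares of all genes on that scale were not counted. The 4 higher with both became 2 without control library 2, control library 3 or siRNA B library 3 and 1 without siRNA B library 1. The 2 lower became 1, with the loss of the siRNA A call of NIP7, without any 1 of the 6 libraries named for that gene.

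**Figure D4:**
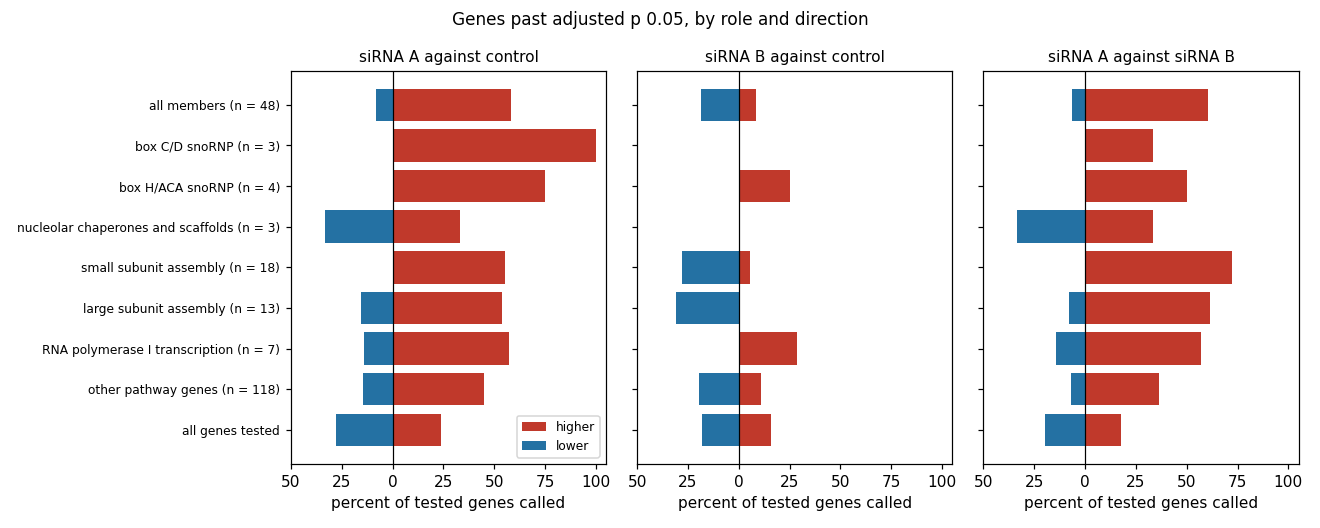
Percent of tested genes called higher (red, right of 0) and lower (blue, left of 0) at an adjusted p under 0.05 in each comparison, for the 48 members, each role, 118 other pathway genes and all genes tested. With siRNA A 58.3% of the members were higher and 8.33% lower against 23.9% and 27.6% of all genes, and on the totals scale, not drawn, 14.6% and 22.9% against 9.05% and 47%.

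SNHG5 itself is a host of snoRNAs, and 8 of the 48 members also hold snoRNA genes (NOP56, NOP58, DKC1, NCL, WDR43, GNL3, TAF1D and TSR1). With siRNA A 6 of these were called higher and 1 lower, with a median of 0.53, or 1 and 1 on the totals scale. The other 40 had 22 higher and 3 lower and a median of 0.35, or 6 and 10 on the totals scale. With siRNA B the hosts had 2 higher and 0 lower and a median of 0.32, or 1 and 1 on the totals scale, and the other 40 had 2 higher and 9 lower and a median of −0.06, or 0 and 15. Background shares were those given above for all genes. Whether hosts and other members differ was not tested.

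Other genes of the pathway were also called higher more often than lower with siRNA A on the TMM scale. On the totals scale more were called lower than higher, as for all genes. Of 121 listed factors outside the 48, 118 were tested. With siRNA A 53 (44.9%) were called higher and 17 (14.4%) lower, where 23.9% and 27.6% of all genes were. On the totals scale 23 (19.5%) were higher and 35 (29.7%) lower, against 9.05% and 47% of all genes. With siRNA B 13 (11.02%) were higher and 23 (19.5%) lower, against 15.6% and 18.3% of all genes. On the totals scale 5 were higher and 38 lower with siRNA B, against 6.9% and 29.7% of all genes. The 13 became 8 without control library 2. The median log2 fold changes were 0.24 and −0.02. By group, the numbers called higher and lower with siRNA A were 4 and 2 of 9 snoRNP assembly genes, 17 and 4 of 36 small subunit genes, 20 and 9 of 44 large subunit genes, 4 and 2 of 14 exosome genes and 8 and 0 of 15 RNA polymerase I genes on the TMM scale, and on the totals scale these were 3 and 3, 9 and 10, 7 and 15, 1 and 5, and 3 and 2. With siRNA B the counts were 1 and 2, 5 and 7, 4 and 12, 1 and 2, and 2 and 0, and on the totals scale 0 and 3, 2 and 12, 1 and 15, 1 and 4, and 1 and 4.

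The largest rises with siRNA A among these were DDX47 (2.24, ± 0.41 SE, adjusted p = 9.20e-04 in limma), HEATR1 (1.21, ± 0.15 SE, adjusted p = 7.42e-05 in limma) and SNU13 (1.14, ± 0.16 SE, adjusted p = 1.87e-04 in limma). DDX47 was low, at 2.003 ± 0.507 CPM in control and 15.5 ± 11.9 with siRNA A (SD, n = 3), and shares exon bases with APOLD1 on the same strand. HEATR1, a further member of the UtpA complex, stood at 94.6, 133 and 112 CPM in control, 224, 284 and 276 with siRNA A and 208, 266 and 199 with siRNA B. It thus also led the rises with siRNA B (0.98, ± 0.15 SE, adjusted p = 5.50e-04 in limma), before NOL9 (0.73, adjusted p = 7.09e-04 in limma) and POLR1E (0.58, adjusted p = 6.35e-04 in limma). SNU13 encodes the protein that binds box C/D snoRNAs first, so with siRNA A all core proteins of that particle were called higher on the TMM scale, and on the totals scale SNU13 was the member still called (0.77, adjusted p = 0.00205).

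The largest falls with siRNA A were those of RPF1 (−1.87, ± 0.18 SE, adjusted p = 1.53e-05 in limma), NOC2L (−1.38, ± 0.09 SE, adjusted p = 2.13e-06 in limma) and WDR18 (−1.23, ± 0.19 SE, adjusted p = 2.78e-04 in limma), all in the list of large subunit factors. With siRNA B they were RSL24D1 (−1.46, ± 0.12 SE, adjusted p = 9.45e-06 in limma), the exosome subunit gene EXOSC3 (−1.20, ± 0.15 SE, adjusted p = 1.60e-04 in limma) and NOC2L (−1.04, ± 0.09 SE, adjusted p = 1.92e-05 in limma). NOC2L stood at 242, 224 and 261 CPM in control, 93.1, 97.6 and 86.0 with siRNA A and 115, 116 and 119 with siRNA B. RSL24D1 stood at 86.9, 67.9 and 82.6 CPM, 111, 89.3 and 104.6, and 29.4, 28.1 and 26.2. NOC2L was low with both siRNAs, and RSL24D1 only with siRNA B, with a difference of 1.82 between the siRNAs (± 0.12 SE, adjusted p = 3.98e-06 in limma). RSL24D1 was 1 of 4 listed genes called in opposite directions, beside NAF1, NOL6 and IMP3, and its siRNA A value of 0.36 was −0.0050 on the totals scale.

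Annotated exons of 25 of the 48 genes overlap those of another gene. Whether the counting used strand is not given in the sources used here, so reads of such genes and of their antisense partners cannot be told apart. Fewer cells, less RNA per cell and a change in the rest of the RNA cannot be told apart in these bulk libraries either, since all values are shares of a library. Beyond NPM1 and RRN3, pseudogenes by name exist for DDX18 (5), NOP56 and NIP7 (3 each), and NCL, NHP2, PES1 and DDX10 (2 each). NOLC1 and LTV1 have 1 each, and reads of all these genes may be shared with their copies.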

How the data were processed

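What the authors deposited was CPM for 15354 genes in each library, without scaling beyond the library total. The submitters' processing notes name TopHat2 (version 2), HTSeq (version 2) and the GRCh37 (hg19) build, and the gene annotation, the use of strand and any filter are not given in the sources used here. Reads were single ends from oligo-dT purified RNA. Every value was a whole multiple of 1 read (100% of values, tolerance 1e-06 of the value), which gave library totals of 15566530 to 23277549 reads. There were no molecular identifiers, so counting errors at this depth cover counting only.

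Identifiers were matched without version to GENCODE lifted to GRCh37 (14871 of 15354 matched), which gave the coordinates, and promoter windows were those of RefSeq on GRCh38.p14. The members and the lists were chosen with earlier results of these data known. Each library was scaled by its TMM factor. The 13893 genes that reached 1 CPM in 3 or more libraries were tested by limma on log2(CPM + 1) with a pseudocount of 1, all 9 libraries in 1 model, a variance trend and Benjamini-Hochberg adjustment, at a threshold of 0.05. An approach for counts was planned in case the table held counts. As CPM was deposited, edgeR's quasi-likelihood test and DESeq2 were run on the recovered reads as alternatives, beside library totals alone, DESeq2 size factors, a pseudocount of 0.1, no filter, the replicate block, the compared groups only, and each library left out. The script was tested on simulated data. Libraries of 1 group correlated at r = 0.983 to 0.994 across genes and differed by more than sampling noise (chi-square per degree of freedom at least 12.2), so all were kept.

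Deviations from the group means of same-numbered control and siRNA A libraries correlated at r = 0.646, 0.411 and 0.13 for numbers 1, 2 and 3, across genes. The correlation between libraries of unlike numbers was not computed, so these values do not settle whether the numbers pair. The main fit used no pairing. With siRNA A the replicate block gave 30 higher and 4 lower members against 28 and 4 without it. Its p is given beside the 2 genes it added there (DDX10 and MYBBP1A). Values per library are given for FBL, NCL, NPM1, DKC1 and POLR1A, for the 3 members of each role with the largest called change with each siRNA, and for members called in opposite directions. Of the other pathway genes the 3 largest rises and falls with each siRNA are named. ZNHIT3, DDX52 and AATF were not matched. UTP4, NOB1, PES1 and further members were added beyond that rule. Fits used limma 3.58.1, edgeR 4.0.16 and DESeq2 1.42.0 in R 4.3.3, and tables and plots pandas 2.3.3, numpy 2.4.6 and matplotlib 3.10.9 in Python 3.11.15.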

Additional observations from a re-analysis of the deposited data

Results flagged for a closer look

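A pair of members passed the threshold with both siRNAs in opposite directions. The difference between the siRNAs comes from the same fit as those calls. For genes chosen this way its call was nearly fixed in advance and adds no separate support. PNO1 differed by 0.93 on the log2 scale between siRNA A and siRNA B (SE 0.09, limma, adjusted p = 4.73e-05) and RRP9 by 0.75 (SE 0.10, limma, adjusted p = 2.79e-04), each higher with siRNA A in 3 of 3 libraries. With library totals alone the differences were 0.77 and 0.60 and were still called, whereas the rises of both genes against control with siRNA A were not.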

How the results depend on the processing

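Scaling moved the results most. With library totals alone 7 members were higher and 11 lower with siRNA A, 1 and 16 with siRNA B, and 1 and 5 with both siRNAs, and of the other pathway genes 23 were higher and 35 lower with siRNA A and 5 and 38 with siRNA B. The siRNA A value of 16 members changed sign under that scaling, 8 of them called on neither scale and 8 called on 1 of the scales: NOB1 (−0.018), UTP4 (−0.0039), WDR75 (−0.12), RRP9 (−0.0028), NOP16 (−0.0169), PES1 (−0.33), RRP1B (−0.0648) and DDX56 (−0.0010). Library totals alone ended 21 of 32 calls with siRNA A and 3 of 13 with siRNA B. With library totals alone, 7 members were wholly above control and 13 wholly below with siRNA A, and 0 and 25 with siRNA B, an alternative chosen after seeing the data. DESeq2 size factors in limma and DESeq2 on the recovered reads each left 1 member lower with both siRNAs.

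Leaving out 1 library at a time gave 23 to 29 members higher and 3 to 4 lower with siRNA A, 1 to 6 and 6 to 10 with siRNA B, 23 to 32 and 2 to 3 between the siRNAs, and 1 to 5 higher and 1 to 2 lower with both siRNAs. Other pathway genes gave 41 to 55 higher and 15 to 17 lower with siRNA A, and 8 to 16 and 19 to 24 with siRNA B. The cause of these changes was not tested.

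With the replicate number as a block 7 members were higher and 11 lower with siRNA B. Those added were NOP58, NCL and NPM1, higher (adjusted p = 0.024, 0.048 and 0.026 in limma), and GAR1 and RRP1B, lower (adjusted p = 0.035 and 0.045 in limma). Deviations of same-numbered control and siRNA B libraries correlated at 0.173, 0.445 and −0.386 for numbers 1, 2 and 3. Those of the siRNAs with each other correlated at 0.204, 0.442 and 0.019. Whether these numbers pair is not settled either. Besides DDX10 and MYBBP1A the block changed no call of a member with siRNA A.

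Over 107 values of single genes and 17 alternatives, 1616 results kept their direction and side of the threshold, 9 changed sign without a call under either setting, 124 lost a call, 62 gained one, and the 8 named above changed sign. Apart from library totals, 52 of 77 calls held under every alternative. Depth was not limiting for members, whose lowest count was 94 reads.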
